A study of Mus musculus with 4 samples.

Results

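Genes that have no annotated gene opposite them, and that carried enough counts to be followed from library to library, were taken from RNA-seq of mouse T-helper 2 cells. A gene was a member if its span, from its lowest to its highest annotated exon position, overlapped no gene span on the other strand, and if its mean over the libraries was at least 20 CPM (CPM is the gene's count per 1000000 counts in its file). Genes on the mitochondrial, X and Y chromosomes were left out. Of 50600 annotated genes, 31729 autosomal genes were free of an opposite gene, and 1043 of these reached the minimum. They were 26.1% of the 4001 autosomal genes at 20 CPM or more, and the other 2958 had an opposite gene. The members were chosen by their mean CPM, so their levels are a description and were not tested.

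The samples were 4 libraries of primary T-helper 2 cells of mouse strain C57BL/6NJ, in 1 group with no treated or control counterpart. The labels call them biological replicates 1 to 4 and give all 4 the same donor identifier, with sex not collected and age unknown, and they link a protocol for in vitro differentiation of CD4+ T cells. The labels name the assay total RNA-seq, while the linked library protocol is named for poly(A) RNA, and the file headers carry the words 72hr-Sort. Nothing given here says whether the replicates came from separate animals or cultures, so a p-value measures only the spread between these libraries, which may be technical.

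T-helper 2 cells are CD4+ T cells that secrete interleukin 4, interleukin 5 and interleukin 13 and act in responses to worms and in allergy. Activated T cells take up iron and amino acids, make many ribosomes and divide, so messages for translation factors, ribosomal proteins and chaperones are abundant in them. Genes on opposite strands that overlap or lie tail to tail can share reads when the strand of a read is not kept or is read the wrong way, and a gene with no opposite partner is free of that exchange within its own span.

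The files held 1274431 to 1857433 assigned fragments a library, so that 3 counts, the limit that a count of 0 allows, correspond to 1.62 to 2.35 CPM. Intervals and floors given here cover counting error only. Genes that mark T cells carried counts. Cd2, Cd3d, Cd3g, Cd4, Cd5, Cd28, Lck, Lat and Ptprc were all members, as were Il4, Il13 and Ccr4. Il1rl1, a receptor found on many T-helper 2 cells, had 1, 1, 0 and 0 counts in replicates 1 to 4. Of other T-helper 2 genes, Ccr8, Il5 and Maf were also low, with mean levels of 7.59, 5.29 and 2.39 CPM. Gata3, Il4ra, Stat6 and Ptgdr2, which have an opposite gene, had 32.1, 67.8, 39.1 and 38.9 CPM. Of 70 free autosomal marker genes of B cells, myeloid cells, granulocytes, CD8 and natural killer cells, red cells and stroma, 1 was a member (Pecam1, an adhesion molecule of endothelium that some leukocytes also carry), 23 had any count, and their summed level was 91.0 to 131 CPM. Cd8a, Cd8b1, Lyz2, Adgre1 and Hbb-bs had no count in any library, and Cd79a, a B cell receptor chain, had 35, 41, 9 and 2 counts. The part of other cells in the results was not tested. The counts were made with the strand option 1. In the mitochondrial genome, the single messenger RNA gene of the minus strand, mt-Nd6, had 20236 to 25756 counts a library, and the 12 messenger RNA genes of the plus strand together had 8783 to 12981. No source used here states which strand the library kit marks, so the counts of a member may be of fragments from the other strand. They are given as fragments assigned to its annotated strand and are not taken as its messenger RNA level. The part of the strand setting in the values below was not tested.

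The promoter ends of 6 members that the results turn on are shown first, so that the sequence can be held beside the levels. They are the 120 bases before the RefSeq start (GRCm38.p6), written 5′ to 3′ on the gene's own strand, with capitals marking matches, on either strand, to the TATA box motif TATAAA, the CCAAT box motif, the GC box motif GGGCGG, the AP-1 motif TGACTCA or the STAT motif TTCCNGGAA. Eef1a1 (translation elongation), Tfrc (iron uptake) and Il2ra (interleukin 2 receptor) varied between libraries, Arid5b (a chromatin-associated transcription factor) and Il4 were steady on file totals, and Irf4, a transcription factor induced by T cell receptor signals, lay next to the steady limit. In order they lie at chr9:78481725-78481844 on the minus strand, chr16:32608776-32608895 on the plus strand, chr2:11642672-11642791 on the plus strand, chr10:68278727-68278846 on the minus strand, chr13:30749113-30749232 on the plus strand and chr11:53618666-53618785 on the minus strand.
Eef1a1: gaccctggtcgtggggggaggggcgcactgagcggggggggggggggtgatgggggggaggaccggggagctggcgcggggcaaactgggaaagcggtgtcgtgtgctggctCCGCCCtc
Tfrc: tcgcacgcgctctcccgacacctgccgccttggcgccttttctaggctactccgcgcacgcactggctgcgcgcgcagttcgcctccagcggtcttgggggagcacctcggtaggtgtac
Il2ra: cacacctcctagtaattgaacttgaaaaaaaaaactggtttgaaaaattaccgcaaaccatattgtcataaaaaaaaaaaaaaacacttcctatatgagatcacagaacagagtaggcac
Arid5b: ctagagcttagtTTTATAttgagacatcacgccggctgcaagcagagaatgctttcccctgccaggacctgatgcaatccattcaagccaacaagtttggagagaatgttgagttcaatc
Irf4: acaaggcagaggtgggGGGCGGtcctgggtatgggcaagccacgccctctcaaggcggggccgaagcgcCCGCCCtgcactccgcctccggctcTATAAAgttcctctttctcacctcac
Il4: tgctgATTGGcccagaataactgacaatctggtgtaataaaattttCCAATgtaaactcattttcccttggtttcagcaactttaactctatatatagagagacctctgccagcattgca
Irf4 held 1 TATAAA and 2 GGGCGG, and Il4 held 2 CCAAT. Of these, 1 GGGCGG of Irf4 and 1 CCAAT of Il4 were on the opposite strand of the window. Arid5b held TATAAA and Eef1a1 held GGGCGG, each also on the opposite strand. Tfrc and Il2ra held none of the 5 motifs. The RefSeq start used for Eef1a1 lies 7427 bp inside the gene bound in the files, and the other 5 starts lie within 24 bp of it. Among all 32851 RefSeq windows of this length, 6.34% held TATAAA, 21.3% CCAAT, 26.5% GGGCGG, 2.30% TGACTCA and 0.496% TTCCNGGAA. Only 784 of the 1043 members (75.2%) had a RefSeq promoter, below the 80% needed. A comparison of promoter composition between steady and variable members is therefore void and none is reported.

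The members were mostly protein-coding genes of moderate level. In GENCODE M21, 1000 were protein coding (95.9%), 13 were lincRNA genes, 12 were loci of the class TEC (to be experimentally tested), and 11 were pseudogenes. The 2958 well counted genes with an opposite gene were 61.9% protein coding. The median mean level was 37.9 CPM in the members and 77.8 CPM in the genes with an opposite gene, and the highest was 1594 and 41542 CPM respectively. Of the members, 695 lay between 20 and 50 CPM, 203 between 50 and 100 CPM and 145 above, with 16 over 500 CPM and 5 over 1000 CPM. Just inside the minimum were Unc13d (20.1 CPM), Tle3 (20.07 CPM) and Crabp2 (20.06 CPM), and just outside it were Cd2bp2 (19.98 CPM), Pfdn1 (19.98 CPM) and Nxf1 (19.96 CPM).

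At the head of the rank order stood Sdr39u1, a short-chain dehydrogenase gene (chromosome 14, 55897286 to 55900232, minus strand). It had 1513, 1523, 2113 and 1228 CPM in replicates 1 to 4 (1594 ± 372, SD, n = 4), with replicate 3 above the rest. In GENCODE M21, though not in the annotation of the files, a gene lies opposite it. Eef1a1, which carries aminoacyl-tRNA to the ribosome (chromosome 9, 78478449 to 78489151, minus strand), came second with 2067, 743, 648 and 2881 CPM (1585 ± 1080). Its values in replicates 1 and 4 were both above those in replicates 2 and 3, and its SD was larger than its difference in mean from any other of the 12 highest genes. Gm37169 (1226 ± 287 CPM), the chaperone gene Hsp90ab1 (1213 ± 690), the lincRNA gene Gm19585 (1088 ± 182), Rpl4 of the large ribosomal subunit (875 ± 473) and the nucleolar gene Npm1 (799.9 ± 509) followed. Arid5b had 792 ± 142 CPM, the locus ENSMUSG00000099597.1, for which no symbol was matched, 674 ± 55.0, the nucleolar gene Ncl 633 ± 443, the elongation factor gene Eef2 623 ± 406 and Basp1 591 ± 150. Eef1a1, Hsp90ab1, Npm1 and the ribosomal protein genes have many near-identical processed pseudogenes, so their counts are uncertain to the extent that reads match several copies.

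**Figure D1:**
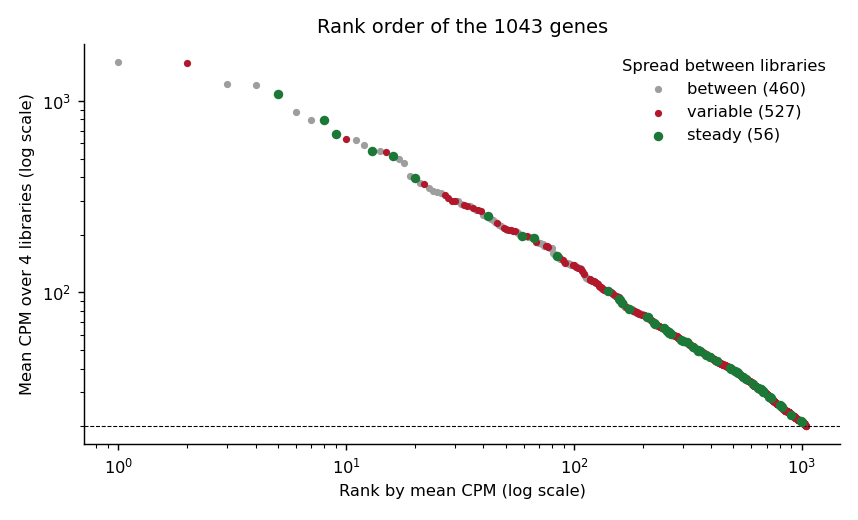
Mean CPM over the 4 libraries against rank by mean CPM, both on log axes, for the 1043 genes, each point coloured by its spread class and the dashed line at 20 CPM. Levels fall from 1594 CPM, and the 56 steady, 527 variable and 460 intermediate genes are found along the whole order.

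The rank order differed between libraries. Of the 12 genes highest by mean, 9, 9, 8 and 9 were among the 12 highest in replicates 1 to 4, and 5 were so in all 4. Of the 100 highest by mean, 89, 81, 80 and 80 were among the 100 highest of the single libraries, and 55 in all 4. Across the 1043 genes, which share libraries and are not independent, Spearman's rho was 0.799 between replicates 2 and 3 and 0.714 between replicates 1 and 4, and 0.392 to 0.670 in the other 4 pairs. The 2958 genes with an opposite gene gave 0.834 to 0.961 over the same 6 pairs. Those genes also had a higher median level (77.8 against 37.9 CPM) and a wider range, so nothing is read from the difference. Scaled per exon length (TPM, the length-corrected count per 1000000), the order was another: Gm19585 led with 2058 TPM, followed by Sdr39u1 (1919), Eef1a1 (968), the ribosomal protein genes Rps24 (854) and Rpl36 (758), and ENSMUSG00000099597.1 (710). Of the 12 highest by CPM, 7 were among the 12 highest by TPM.

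The share of all counts that fell on the members was itself unequal. It was 9.19% in replicate 1 (95% Wilson interval 9.14 to 9.23), 4.48% in replicate 2 (4.45 to 4.51), 4.89% in replicate 3 (4.85 to 4.92) and 10.7% in replicate 4 (10.68 to 10.79). These intervals do not overlap. Genes with an opposite gene at 20 CPM or more held 80.1%, 88.3%, 88.0% and 76.4% of the counts. The locus CT010467.1, which is no member, alone had 35882, 57276, 44273 and 28735 CPM, highest in the library whose member share was lowest. Its counts are part of every total behind a CPM. Its part in the member levels was not tested. The median member in replicate 2 had 0.407 times its CPM in replicate 1, and the median member in replicate 4 had 1.202 times, against 1.06 and 0.987 for the genes with an opposite gene.

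Spread between libraries was then described in 3 classes. A member was called steady if its highest CPM was at most 1.5 times its lowest. It was called variable if its 4 counts varied beyond Poisson sampling (chi-square test with TMM-scaled totals, Benjamini-Hochberg adjusted p at most 0.05 over the 7752 genes with a mean count of 10 or more) and its highest value, with each count raised by 1, was at least 4 times its lowest. The chi-square test called 963 of 1043 members (92.3%), and over all genes tested it called 88.2%. By this rule 56 members were steady (5.37%, against 15.1% of all genes tested), 527 were variable (50.5%, against 41.0%) and 460 lay between. Among the 2958 genes with an opposite gene 35.0% were steady and 10.9% variable. The median of the highest over the lowest value was 4.08 in the members (interquartile range 2.57 to 6.33) and 1.70 in the genes with an opposite gene, a description with no test. Of the 695 members between 20 and 50 CPM 384 were variable and of the 16 over 500 CPM 3 were. The minimum on the mean has a part in the first count, since genes near it can pass through the libraries where they are high, and nothing is read from the comparison.

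**Figure D2:**
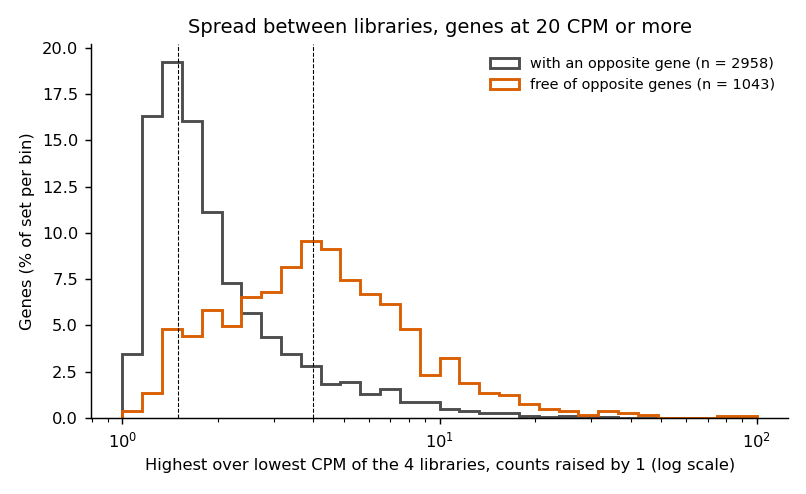
Percentage of genes in each bin of the highest over the lowest CPM of the 4 libraries (log axis, counts raised by 1), for the 1043 members and the 2958 well counted genes with an opposite gene, with dashed lines at ratios of 1.5 and 4. The members centre on a median of 4.08 and the genes with an opposite gene on 1.70.

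These classes depend on how libraries are scaled, because the members as a whole are lower in replicates 2 and 3. TMM factors move the totals by 0.12, -0.23, -0.12 and 0.24 on the log2 scale, and making the summed member counts equal moves them by 0.43, -0.60, -0.48 and 0.65. With TMM-scaled totals, DESeq2 size factors and equal member counts, 364, 334 and 194 members were variable and 47, 55 and 83 steady. Of the variable members, 324 were so under the first 3 scalings and 141 under all 4. Of the steady members, 21 were steady with file totals, TMM and DESeq2 size factors, and none remained steady when member counts were made equal. A steady member is thus a gene that kept about the same share of the file total in each library. Common biological variation, as edgeR's coefficient of variation over the members, was 0.575, the same as over all genes tested.

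One order of the libraries recurred. In 825 members (79.1%) replicates 1 and 4 were both above replicates 2 and 3, against 46.2% of all genes tested and 21.9% of the genes with an opposite gene. The reverse, replicates 2 and 3 both above, held in 50 members (4.79%), against 17.7% of all genes tested. With TMM-scaled totals the first order held in 732 members (70.2%, against 38.2% of all genes tested). With DESeq2 size factors it held in 699 (67.0%, against 35.7%), and with equal member counts in 459 (44.0%, against 22.8%). The reverse held in 9.30%, 11.1% and 21.4% of members under these 3 scalings, against 29.7%, 32.8% and 45.1% of all genes tested. This order was noticed in the data and is no grouping in the labels. Replicate 4 was the highest library in 645 members, replicate 1 in 287, replicate 3 in 80 and replicate 2 in 31. Among the 527 variable members, 515 (97.7%) followed the order, with 435 highest in replicate 4. The order also held in 80.8% of variable genes with an opposite gene and in 74.2% of all variable genes tested. Genes near the minimum on the mean can pass it through the libraries where they are high, so nothing is read from the comparison.

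The 12 variable members of highest ratio at 50 CPM or more had roles of many kinds. Hnrnpc, which binds nascent transcripts, had 107, 22.6, 11.1 and 178 CPM, a ratio of 15.2 (6.93 with equal member counts). Ptprc, the CD45 phosphatase that sets the threshold of T cell receptor signalling, had 245, 67.8, 38.7 and 515 CPM, a ratio of 13.1. Hnrnph1, a splicing regulator, had 82.0, 17.8, 8.30 and 117 CPM. In each of these replicate 4 was highest and replicate 3 lowest, and no value of replicates 1 and 4 overlapped those of replicates 2 and 3. Tfrc, the transferrin receptor, had 108, 26.4, 20.1 and 251 CPM. Malt1, a protease and scaffold of NF-κB signalling, had 149.9, 26.9, 16.6 and 205 CPM. Nabp1 (78.4 ± 85.0 CPM), Ddb1 (82.7 ± 74.5), the GTPase gene Gimap4 (57.3 ± 50.1), Tomm70a of the mitochondrial import machinery (50.9 ± 58.1), the tetraspanin gene Cd53 (61.0 ± 59.0), the proteoglycan gene Srgn (77.4 ± 67.9) and Ppia (88.5 ± 83.3) completed the 12, with ratios down to 9.53 on the file totals. All 12 had replicate 4 highest and replicates 1 and 4 above replicates 2 and 3, the second an order that 515 of the 527 variable members followed. With equal member counts Cd53 lost the second order.

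The steadiest members at 50 CPM or more included a defining cytokine of these cells. Il4 (chromosome 11, 53602982 to 53618669, minus strand) had 58.4, 59.2, 58.1 and 50.2 CPM (56.5 ± 4.20), from 104, 110, 84 and 64 counts. Its ratio was 1.17 with file totals, 1.62 with TMM and 2.81 with equal member counts, and under the TMM-scaled totals of the chi-square test its spread passed the threshold (adjusted p = 0.0136). Cep85, a centrosome gene, had 59.5, 60.8, 66.4 and 61.99 CPM, and Cpsf2, a subunit of the cleavage and polyadenylation machinery, had 51.1, 49.5, 51.2 and 55.7 CPM. Both ratios stayed under 1.5 with file totals, TMM and DESeq2 size factors, and both reached over 2 with equal member counts (2.35 and 2.12). The rest of the 10 were Gm37090 (88.1 CPM), ENSMUSG00000099597.1, Gm38244 (515 CPM), Gmpr2 (192 CPM), Vps37c (91.7 CPM), Smpd4 (74.0 CPM) and Eml3 (64.8 CPM). Of these 10, ENSMUSG00000099597.1, Gmpr2, Eml3 and Cpsf2 have an opposite gene in GENCODE M21. Arid5b was the highest protein-coding steady member, with 651, 913, 915 and 687 CPM, here with replicates 2 and 3 above replicates 1 and 4. Irf4 had 478, 411, 619 and 484 CPM and a ratio of 1.504, just past the steady limit.

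**Figure D3:**
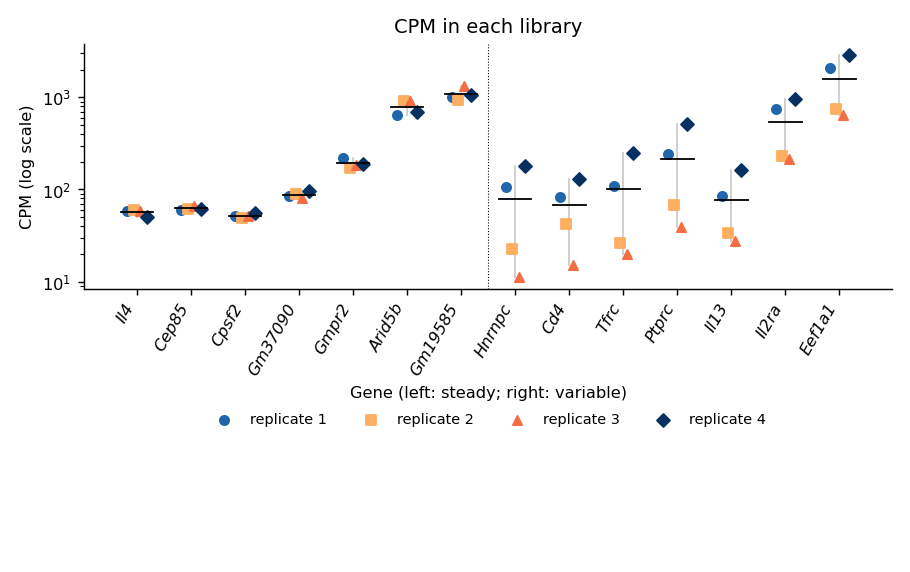
CPM (log axis) of 7 steady genes on the left and 7 variable genes on the right, with 1 marker for each replicate, a bar at the mean and a grey line over the range. In the variable genes the markers of replicates 1 and 4 lie above those of replicates 2 and 3, from 178 and 107 down to 22.6 and 11.1 CPM in Hnrnpc, while the 4 markers of Il4 lie between 50.2 and 59.2 CPM.

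Among the gene lists, T cell receptor and signalling genes had the widest spread. Of 22 list genes 14 were free of an opposite gene and 11 were members, of which 10 were variable, none was steady and 1 (Cd6) lay between, beside 50.5% variable among all members. With TMM and DESeq2 size factors 9 of the 11 were variable, and with equal member counts 5, while replicates 1 and 4 were both above the others in 10 genes, and in 7 with equal member counts. The median ratio of highest to lowest was 8.19, against 4.08 over all members, and it was the highest of the 16 lists with at least 3 members with file totals, TMM (6.37), DESeq2 size factors (5.87) and equal member counts (3.77). Cd4, the co-receptor for class II peptide complexes, had 83.1, 42.0, 15.2 and 129 CPM. Cd2, an adhesion and costimulatory receptor, had 98.3, 32.3, 20.7 and 137 CPM. Both were lowest in replicate 3 and highest in replicate 4. Lck, the kinase that starts receptor signalling, had 53.4, 21.5, 13.8 and 107 CPM, and Cd28, the main costimulatory receptor, had 33.1, 9.15, 2.77 and 68.3 CPM. Cd3d, a chain of the receptor complex, had 34, 21, 1 and 79 counts and Cd3g, its neighbour on chromosome 9, had 57, 39, 8 and 46. Cd6, a costimulatory scavenger receptor, went another way, with 120.2, 113 and 126 CPM in replicates 1, 2 and 4 and 203 in replicate 3. The summed level of the 11 genes was 824, 353, 334 and 1349.6 CPM. In bulk libraries fewer cells of a type and less RNA per cell cannot be told apart.

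Activation and costimulation genes gave 9 members, 5 variable and 4 between, with 0 variable when member counts were made equal. Il2ra, the high-affinity chain of the interleukin 2 receptor, had 749, 229.9, 215 and 958 CPM. Ctla4, an inhibitory receptor, had 136, 49.5, 64.3 and 293 CPM, and Tnfrsf4 (OX40) had 83.1, 34.5, 22.8 and 121 CPM. For all 3 genes replicates 1 and 4 were above replicates 2 and 3. Tnfaip3, a feedback inhibitor of NF-κB signalling, had 39.3, 25.3, 25.6 and 48.6 CPM and was the 1 member of the list that did not pass the chi-square test (adjusted p = 0.189).

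The 5 members of the cytokine list did not share 1 pattern. Il17d, a member outside that list, is given further below. Il13, the effector cytokine beside Il4, had 84.2, 33.4, 27.7 and 163 CPM, and Lta, which encodes lymphotoxin alpha, had 51.7, 22.1, 23.5 and 101 CPM. Both were variable, with ratios of 5.78 and 4.51 on file totals and 2.63 and 1.92 with equal member counts. Il10, an anti-inflammatory cytokine, had 23.02, 26.9, 33.9 and 35.3 CPM, and its spread did not pass the test (adjusted p = 0.0705). Ltb, the partner of Lta, had 19.7, 30.1, 24.9 and 15.7 CPM, with replicates 2 and 3 above replicates 1 and 4. Il4, described above, was the steady one. Il4 and Il13 lie in the same cytokine cluster on chromosome 11. No test of the difference between the patterns was made.

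Of receptors and signalling kinases of cytokines, 4 were members and 3 were variable. Jak2, a receptor-bound kinase, had 255, 75.9, 56.7 and 402 CPM, and Il2rb, the shared chain of the interleukin 2 and 15 receptors, had 48.9, 17.2, 35.3 and 61.2 CPM. Of 20 T helper fate factors 5 were free of an opposite gene and 1, Id2, was a member, with 24.2, 4.31, 2.07 and 54.1 CPM. Gata3, the factor that defines the T-helper 2 fate, has an opposite gene and is not among the members. Of 7 homing and adhesion members 3 were variable and Itgb1, the integrin beta 1 chain, was steady on file totals with 64.0, 43.1, 62.2 and 51.0 CPM (ratio 1.48, and 1.56 with TMM). Ccr4, a chemokine receptor of T-helper 2 cells, had 33.7, 22.6, 21.4 and 86.3 CPM.

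Among the gene lists, ribosomal protein genes gave the most members and translation factors the next most. Of 78 ribosomal protein genes 56 were free of an opposite gene and 53 were members, 23 variable and 30 between, with none steady, and 2 were variable with equal member counts. Their summed level was 14187, 4638, 4816 and 14024 CPM, beside 91856, 44834, 48894 and 107340 CPM over all members. In 50 of 53 genes replicates 1 and 4 were both above the others (35 with equal member counts), an order that held in 79.1% of all members (44.0% with equal member counts) and in 46.2% of all genes tested on file totals. Rpl4 had 1302, 458, 473 and 1266 CPM, and Rpl27a, the least variable of them, had 376, 212, 273 and 263 CPM. Of 25 members among the translation factors, 13 were variable and 12 between, a share close to the 50.5% of all members, and 1 was variable with equal member counts. In all 25 replicates 1 and 4 were above replicates 2 and 3 on file totals (24 with TMM and 21 with equal member counts), beside 79.1% of all members on file totals and 44.0% with equal member counts. Eef2, which moves the ribosome along the message, had 919, 274, 274 and 1026 CPM, and Eif4e, the cap-binding factor, had 14.04, 11.3, 2.07 and 63.6 CPM. The median value in replicate 4 was 1.39 times that in replicate 1 for translation factors and 1.01 times for ribosomal proteins, beside 1.205 over all members.

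Proliferation, splicing, proteasome and chaperone genes are read against the 50.5% of all members that were variable on file totals and the 18.6% that were so with equal member counts. Of 15 proliferation members 12 were variable and 3 between (4 variable with equal member counts), with a median ratio of 6.57. Tubb5, a tubulin, had 238, 93.1, 98.9 and 422 CPM, Rrm2, a subunit of ribonucleotide reductase, had 34.3, 8.08, 5.53 and 100.4 CPM, and Cdk1, the mitotic kinase, had 25.3, 7.54, 3.46 and 61.99 CPM. In all 15 replicates 1 and 4 were above replicates 2 and 3 on file totals, and in 9 with equal member counts. Of 12 proteasome and ubiquitin members 10 were variable, and 3 with equal member counts (median ratio 6.68), with Psmc1, an ATPase of the proteasome cap, at 60.7, 25.8, 13.1 and 82.4 CPM. Of 21 splicing members 11 were variable and 10 between, a share close to that of all members, and 5 were variable with equal member counts (median ratio 6.02). Hnrnpa2b1, an RNA-binding protein of unspliced transcripts, had 277, 51.7, 47.7 and 407 CPM, whereas Ddx5, an RNA helicase, had 172, 114, 127 and 365 CPM. Of 18 chaperone members 13 were variable and 5 between, and 2 were variable with equal member counts. Hspa8, a constitutive HSP70, had 443, 99.1, 151 and 455 CPM.

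The remaining lists were mixed. Glycolysis had 7 members, 2 variable and 5 between, with a median ratio of 3.05. Pkm, the pyruvate kinase, had 505, 176, 228 and 495 CPM, and Ldha, the lactate dehydrogenase of cells in growth, had 409, 115, 125 and 481 CPM. The actin list had 14 members, 10 variable and 4 between. Actb had 397, 125, 115 and 648 CPM, and it is a gene often used to scale expression. With equal member counts none of the 14 was variable. Chromatin regulators had 16 members, 7 variable and 9 between, and the median value in replicate 4 was 0.97 times that in replicate 1. Hmgb2, a chromatin protein of dividing cells, had 358, 145, 159 and 242 CPM. The 3 class I members Calr, H2-K1 and H2-D1 all lay between, with ratios of 3.04 to 3.51, and in the nucleolus list 4 of 6 were variable and Fbl, which methylates ribosomal RNA, was steady at 30.9, 26.4, 27.0 and 29.8 CPM. The RNA genes Neat1 and Snhg1 were both variable.

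**Figure D4:**
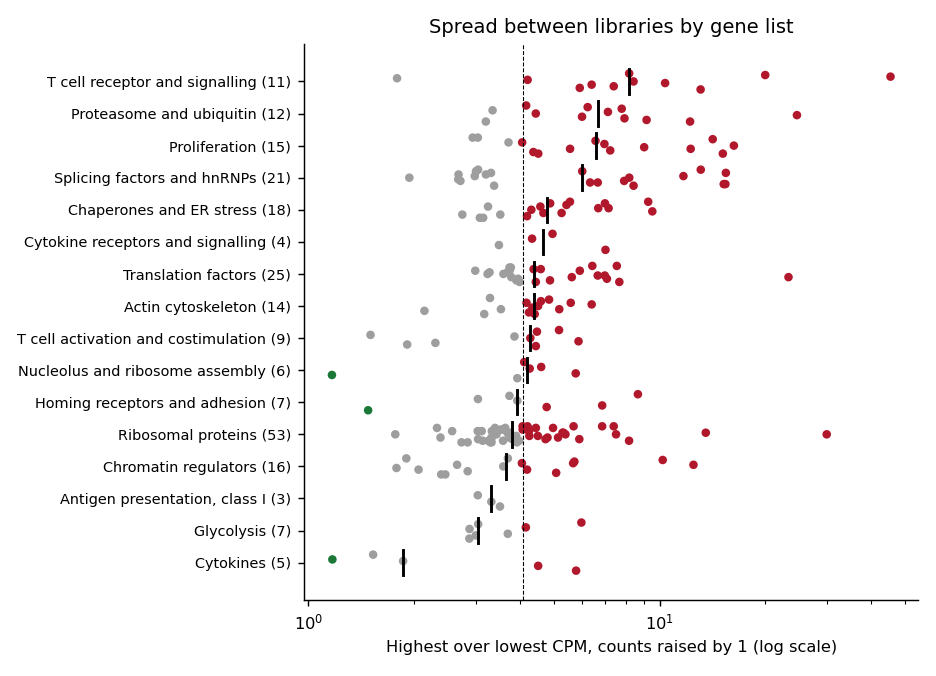
Highest over lowest CPM (log axis, counts raised by 1) of each member of the gene lists with at least 3 members, green for steady, red for variable and grey for between, with a bar at each list's median and a dashed line at the median of all members. The T cell receptor list has a median of 8.19 and the cytokine list one of 1.86, beside 4.08 over all members.

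Exceptions to the common order were few among the variable members, of which 97.7% followed it, beside 74.2% of all variable genes tested. Of 527, 12 did not have replicates 1 and 4 both above replicates 2 and 3, among them Prdx1, Gm47900, Cflar, Hp1bp3, Il17d, Gmnn, Gm26917, Myl6b, Smox, Marcks and Ctr9. The lincRNA gene Gm47900 had 45.5, 35.5, 57.4 and 7.06 CPM, lowest in replicate 4, and it was the 1 variable member with its highest value in replicate 3. Il17d, a member of the interleukin 17 family, had 25.8, 43.1, 24.2 and 8.63 CPM and was the 1 variable member highest in replicate 2. Marcks, an actin-linked membrane protein, had 38.7, 26.4, 5.53 and 12.6 CPM. Gm26917, which lies 12 bp from CT010467.1 on the other strand, had 7.30, 28.5, 24.9 and 35.3 CPM, and Myl6b and Smox also had their lowest value in replicate 1. At the other end, Cast (calpastatin, an inhibitor of calpain) had 73.6, 12.4, 10.4 and 41.6 CPM and Ccdc58 43.8, 10.2, 10.4 and 21.2 CPM, the variable members with the largest share of their level in replicate 1. Glud1, the glutamate dehydrogenase, had 36, 15, 3 and 112 counts and Stt3a, a subunit of oligosaccharyltransferase, had 15.2, 3.23, 3.46 and 68.3 CPM, the 2 with the largest share in replicate 4.

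Each library was also tested against the other 3 gene by gene. With edgeR's quasi-likelihood test and Benjamini-Hochberg adjustment, 0 members were called in replicate 1, 2, 3 or 4 against the rest, beside 0.0%, 0.0129%, 0.0387% and 0.0% of all genes tested. At an unadjusted p under 0.05 there were 0, 63, 156 and 161 members, and with DESeq2's Wald test 0 members passed adjustment and 2, 66, 156 and 106 were under 0.05 unadjusted. With 1 library on a side this design has little power: in simulated counts the edgeR test recovered 1% of 4-fold changes. The lack of calls is therefore not read as a lack of differences. Without replicate 4, replicate 1 differed from the other 2 in 103 members (9.88%, 102 of them higher), beside 3.27% of all genes tested in that fit. Without replicate 1, replicate 4 did so in 280 members (26.8%, 263 higher), beside 14.6% of all genes. Without replicate 3, replicate 2 differed in 139 members (13.3%, 138 lower), beside 4.88% of all genes, and without replicate 2, replicate 3 did so in 265 (25.4%, 259 lower), beside 9.23%. Each of these fits left out the library that goes with the tested one in the order described above. That order was noticed in these data, so the calls and their direction lend it no support. Members were called only with these omissions. The fits compare libraries, not conditions.

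The surroundings of steady and variable members are given as a description. The rule had removed genes overlapped by an opposite gene, so the distances are those left after it. The median distance to the nearest gene on the other strand was 1816.5 bp for steady, 3067.5 bp for intermediate and 6706 bp for variable members. Of 56 steady members 21 (37.5%) lay within 1000 bp of such a gene, of 527 variable members 141 (26.8%) did, and over 20000 bp away lay 8 (14.3%) and 144 (27.3%). Among the 182 members whose nearest opposite gene lay tail to tail at over 1000 and up to 5000 bp, 19 were steady (10.4%) and 77 variable (42.3%), while of 120 tail-to-tail members over 20000 bp away 2 were steady (1.67%) and 69 variable (57.5%). Of the 118 tail-to-tail members within 1000 bp, 6 were steady (5.08%) and 44 variable (37.3%). At over 5000 and up to 20000 bp, 6 of 150 were steady (4.0%) and 87 variable (58.0%). Head to head, the steady share was 7.61% within 1000 bp, 2.0% up to 5000 bp, 0.962% up to 20000 bp and 4.92% beyond, from 15, 1, 1 and 6 genes. In neither orientation did the steady share move in 1 direction with distance, and the bins held few steady genes. Il4 lies tail to tail with Kif3a, 1015 bp from its end, and Vps37c lies 3724 bp from Cd5. Across members, which share libraries, spread and distance had a Spearman's rho of 0.164, a weak relation given as a description, and spread and mean CPM one of -0.206. Of the steady members 43 (76.8%) were protein coding and of the variable ones 520 (98.7%), and 5 of the 12 TEC loci were steady and none was variable. An opposite gene in GENCODE M21 was found for 8 steady members (14.3%) and 26 variable ones (4.93%). A gene of the same strand overlapped 4 of the 56 steady, 97 of the 460 intermediate and 121 of the 527 variable members. How fragments in such overlaps were assigned was not tested. Reads of neighbouring genes as a part of these differences were not tested.

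**Figure D5:**
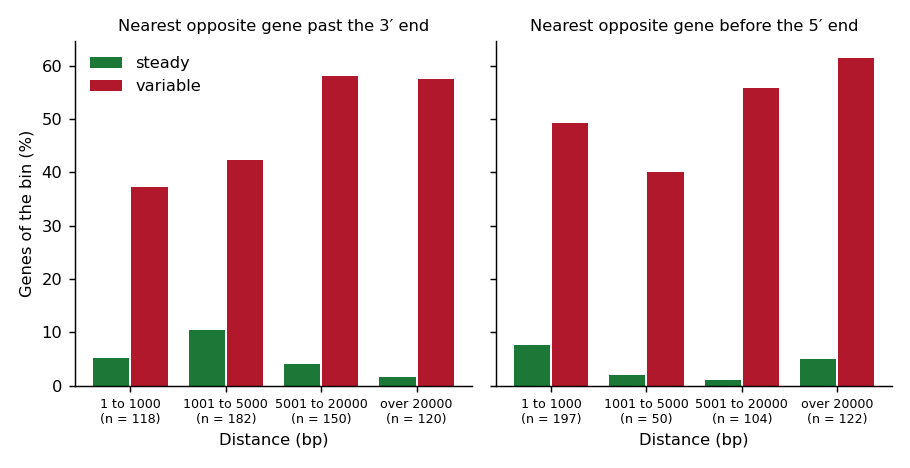
Percentage of genes that were steady (green) and variable (red) in each bin of distance in bp to the nearest gene on the other strand, for genes whose nearest opposite gene lies past the 3′ end (left, tail to tail) or before the 5′ end (right, head to head). Variable genes make up 37.3% of the nearest and 57.5% of the farthest bin on the left, and 49.2% and 61.5% on the right.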

How the data were processed

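RNA-seq counts of the 4 libraries were used as deposited: raw fragment counts per gene, not normalized. Per the file headers, the authors counted paired fragments over exons with featureCounts v1.4.6-p4, both ends required to map, strand option 1, on STAR alignments with GENCODE M13, and the labels name assembly mm10. The STAR version and any read filter are not given in the sources used here. Gene names and classes came from GENCODE M21 (50376 of 50600 identifiers matched), promoters from RefSeq (GRCm38.p6).

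CPM used the file total. The chi-square test of each gene's 4 counts against Poisson sampling used TMM-scaled totals over the 7752 genes with a mean count of 10 or more. One library against 3 was tested with edgeR 4.0.16 (R 4.3.3), with DESeq2 1.42.0 as an alternative, both adjusted by Benjamini-Hochberg over all genes tested. Both tests were tried on simulated counts with 200 genes changed in 1 library. The chi-square test, on Poisson counts, recovered 62.5% of 2-fold and 100% of 4-fold changes. The edgeR test, on negative binomial counts, recovered 0% of 2-fold, 1% of 4-fold and 74% of 16-fold changes. TPM was computed from the counts and the exon lengths in the files. Python 3.11.15 made the tables.

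Named genes were the 12 highest members, the 10 steadiest and the 12 most variable at 50 CPM or more, the 3 on each side of the minimum, the 3 highest of each gene list, the 6 highest by TPM, the 2 variable members with the largest share of their level in each library, and the 6 highest variable members with their top value in replicate 2 or 3. Genes named beyond these were chosen after their values were seen. The members and lists were chosen with earlier results of these data known. Some results for named genes are not reported here.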

Additional observations from a re-analysis of the deposited data

Results flagged for a closer look

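In 3 of 112 sets of 4 library values, 1 library lay farther from the rest than Dixon's 95% limit for the gap over the range. Chance flags about 1 in 20 such sets. Cd6 was apart in replicate 3, with 203 CPM beside 113 to 126 (gap over range 0.861). Vps37c was apart in replicate 1, with 74.7 CPM beside 96.1 to 98.1 (0.916). Il4 was apart in replicate 4, with 50.2 CPM beside 58.1 to 59.2 (0.874), from 64 counts beside 84 to 110. Over all 1043 members, 34 (3.26%) had such a library.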

How the results depend on the processing

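The number of members was 2047 at a minimum of 10 CPM and 348 at 50 CPM, and at 50 CPM 335 varied beyond sampling, 28 were steady and 143 variable. Leaving out 1 replicate at a time gave 823 to 1215 members. Steady members numbered 100 to 112 with 1 replicate left out, and 35 without members within 1000 bp of an opposite gene, an alternative added after seeing the data. Variable members numbered 334 with DESeq2 size factors, 194 with equal member counts, and 304 to 483 with 1 replicate left out, lowest without replicate 4. The biological coefficient of variation was 0.666 with file totals, 0.448 with equal member counts (added after seeing the data), and 0.516 to 0.656 with 1 replicate left out. The median pairwise Spearman's rho of the rank order, 0.634, was 0.815 in TPM and 0.460 to 0.670 with 1 replicate left out. The mean share of counts on members, 7.32%, was 6.19% to 8.27% with 1 replicate left out. Members called in replicates 1, 2, 3 and 4 against the rest ranged from 0 to 103, 0 to 139, 0 to 265 and 0 to 280 when another replicate was left out. The causes were not tested; fewer libraries make the steady rule easier to meet. Of 445 alternative mean levels of the 89 named genes, 445 stayed within 1 SD. Where 1 of 4 libraries was left out this was fixed in advance, since that cannot move a mean by 1 SD. Only TMM-scaled totals could have moved a mean so far, and they moved 0. With 3 counts worth up to 2.35 CPM, members near 20 CPM in replicates 2 and 3 rest on few counts. No paired analysis was possible because the study has 1 group and no second group shares its replicate numbers.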
